A study of Mus musculus with 5 samples.

Results

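The CXCL12 chemokine axis was followed through the NEUROD2 binding sites around its 3 genes: Cxcr4 (the signalling receptor), Cxcl12 (the ligand) and Ackr3 (the atypical receptor that takes up CXCL12). A peak was taken for a gene when its midpoint lay in the longest-span GENCODE M21 transcript or up to 100 kb from either end, and overlapping peaks were merged into regions. This gave 65 of the 94621 peaks and 37 of the 53833 merged regions of the genome, with 10 regions at Cxcr4, 10 at Cxcl12 and 17 at Ackr3. NEUROD2 was immunoprecipitated from the cerebral cortex of E14.5 embryos of the BALB/c strain with 3 different antibodies, here ab1, ab2 and ab3, with 1 library each. Chromatin came from the pooled cortices of several litters, and the labels give no engineered allele and no treatment of the animals. GFP antibodies, in 2 libraries, gave the background against which the authors called the peaks, and ab2 and ab3 share the rabbit one. There was 1 condition and no contrast, so the values below are descriptions, and the spread given is that over antibodies.

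CXCL12 is a secreted chemokine that binds CXCR4, a G protein-coupled receptor, and ACKR3, which binds the same ligand with high affinity, recruits β-arrestin and clears CXCL12 from the tissue. In the developing cortex the axis is known for guiding the tangential migration of interneurons and Cajal-Retzius cells and for the movement of CXCR4-expressing intermediate progenitors, with ligand from the meninges and the progenitor layers. NEUROD2 is a basic helix-loop-helix transcription factor of excitatory neurons that binds the E-box, CANNTG, as a dimer with E proteins. The cortex was used whole, so the share of cells in which a region was bound and the occupancy in each cell cannot be told apart, and neither can the cell types.

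Each peak carries a score, −10 times the log10 of the p-value given by the peak caller, and the lowest score of each library was at the cutoff of 50. A higher score is stronger evidence of enrichment, not a measure of occupancy, and scores of different antibodies are not on one scale. An antibody without a peak in a region therefore had less evidence than the cutoff, which does not show that NEUROD2 was absent. The numbers of called peaks differed, and ab1 had 51841 peaks, ab2 35310 and ab3 7470. The study tested its antibodies at Nhlh2, where PCR on immunoprecipitated DNA amplified the promoter with all 3 antibodies and not with GFP. In the peak lists, regions lay at −1791, −85 and 2208 bp from the Nhlh2 transcription start site (TSS). Each had ab1 and ab2 peaks and none had an ab3 peak.

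The sequences of 8 regions are shown here because the results turn on them: the 3 regions around the Cxcr4 TSS, and the 5 regions in which all 3 antibodies had a peak. Each line gives the central 200 bp on the forward strand of the reference genome (build mm10, RefSeq GRCm38.p6, from C57BL/6J mice, so that BALB/c variants are not seen), in lower case. Capitals mark the extended E-box, which is CANNTG followed by G or T, where the first N is G or T and the second is C or A, on either strand. Cxcr4 lies on the reverse strand, and both other genes on the forward strand. A plus sign in a name is a distance downstream of the TSS in the direction of transcription, and a minus sign is upstream.
Cxcr4 +1.1 kb, chr1:128591103-128591302: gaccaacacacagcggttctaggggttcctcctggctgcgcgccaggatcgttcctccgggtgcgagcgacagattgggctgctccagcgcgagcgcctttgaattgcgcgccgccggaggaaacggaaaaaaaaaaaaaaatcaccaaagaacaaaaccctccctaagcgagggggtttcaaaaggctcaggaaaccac
Cxcr4 −0.9 kb, chr1:128593079-128593278: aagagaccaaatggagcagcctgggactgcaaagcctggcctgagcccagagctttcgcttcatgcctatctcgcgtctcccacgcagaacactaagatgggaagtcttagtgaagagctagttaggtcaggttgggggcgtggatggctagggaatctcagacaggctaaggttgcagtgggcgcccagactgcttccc
Cxcr4 −2.2 kb, chr1:128594417-128594616: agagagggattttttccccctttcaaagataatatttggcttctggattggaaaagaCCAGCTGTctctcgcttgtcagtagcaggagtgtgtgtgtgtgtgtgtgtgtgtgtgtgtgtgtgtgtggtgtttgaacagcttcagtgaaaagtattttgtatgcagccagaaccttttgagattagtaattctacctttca
Cxcr4 +30.8 kb, chr1:128561353-128561552: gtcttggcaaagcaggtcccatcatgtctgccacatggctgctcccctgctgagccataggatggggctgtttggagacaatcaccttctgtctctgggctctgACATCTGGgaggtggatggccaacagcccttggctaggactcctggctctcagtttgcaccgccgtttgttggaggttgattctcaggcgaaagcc
Cxcl12 +83.4 kb, chr6:117251850-117252049: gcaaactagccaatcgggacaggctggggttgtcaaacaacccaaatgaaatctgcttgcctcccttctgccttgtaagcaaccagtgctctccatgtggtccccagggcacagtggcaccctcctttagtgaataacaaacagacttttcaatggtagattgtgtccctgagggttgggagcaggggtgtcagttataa
Cxcl12 +85.8 kb, chr6:117254299-117254498: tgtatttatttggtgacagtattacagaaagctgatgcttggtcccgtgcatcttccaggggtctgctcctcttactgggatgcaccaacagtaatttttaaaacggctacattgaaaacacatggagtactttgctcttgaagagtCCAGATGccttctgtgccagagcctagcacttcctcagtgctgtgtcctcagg
Ackr3 +18.3 kb, chr1:90222216-90222415: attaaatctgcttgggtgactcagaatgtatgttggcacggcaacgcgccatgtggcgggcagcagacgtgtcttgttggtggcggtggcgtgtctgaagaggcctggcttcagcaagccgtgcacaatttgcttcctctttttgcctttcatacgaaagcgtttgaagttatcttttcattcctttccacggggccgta
Ackr3 +64.3 kb, chr1:90268212-90268411: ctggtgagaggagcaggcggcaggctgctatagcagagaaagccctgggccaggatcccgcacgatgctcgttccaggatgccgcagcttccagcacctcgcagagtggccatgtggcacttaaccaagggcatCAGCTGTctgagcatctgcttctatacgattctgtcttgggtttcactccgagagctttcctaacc
The extended E-box was present in 4 of these 8 windows: 1 copy each in the Cxcr4 regions at −2.2 and +30.8 kb, the Cxcl12 region at +85.8 kb and the Ackr3 region at +64.3 kb. The window at Cxcr4 +1.1 kb held no E-box core of any kind.

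NEUROD2 regions lay on both sides of Cxcr4 and in its only intron, only downstream of the TSS at Ackr3 among regions with more than 1 antibody, and far from the TSS at Cxcl12. Of the 37 regions, 23 held peaks of 2 or more antibodies (62.2%, against 59.9% of all merged regions) and 5 held all 3 (13.5%, against 13.3%). The shares at the 3 loci were thus near those of the genome. By gene, regions with 2 or more antibodies numbered 8 of 10 at Cxcr4, 5 of 10 at Cxcl12 and 10 of 17 at Ackr3. Every one of the 23 held both an ab1 and an ab2 peak, and the 5 ab3 peaks all fell in regions with both. This was also the rule over the genome, where 7160 merged regions held all 3 antibodies and ab3 had 7470 peaks. Nearly all regions of the genome with 2 or more antibodies therefore held ab1 and ab2. The other 14 regions rested on 1 antibody, which was ab1 in 13, with scores from 55.93 to 135.35 (median 67.74), and ab2 in 1, with a score of 54.24. The ab1 library also had the most peaks in the genome.

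**Figure D1:**
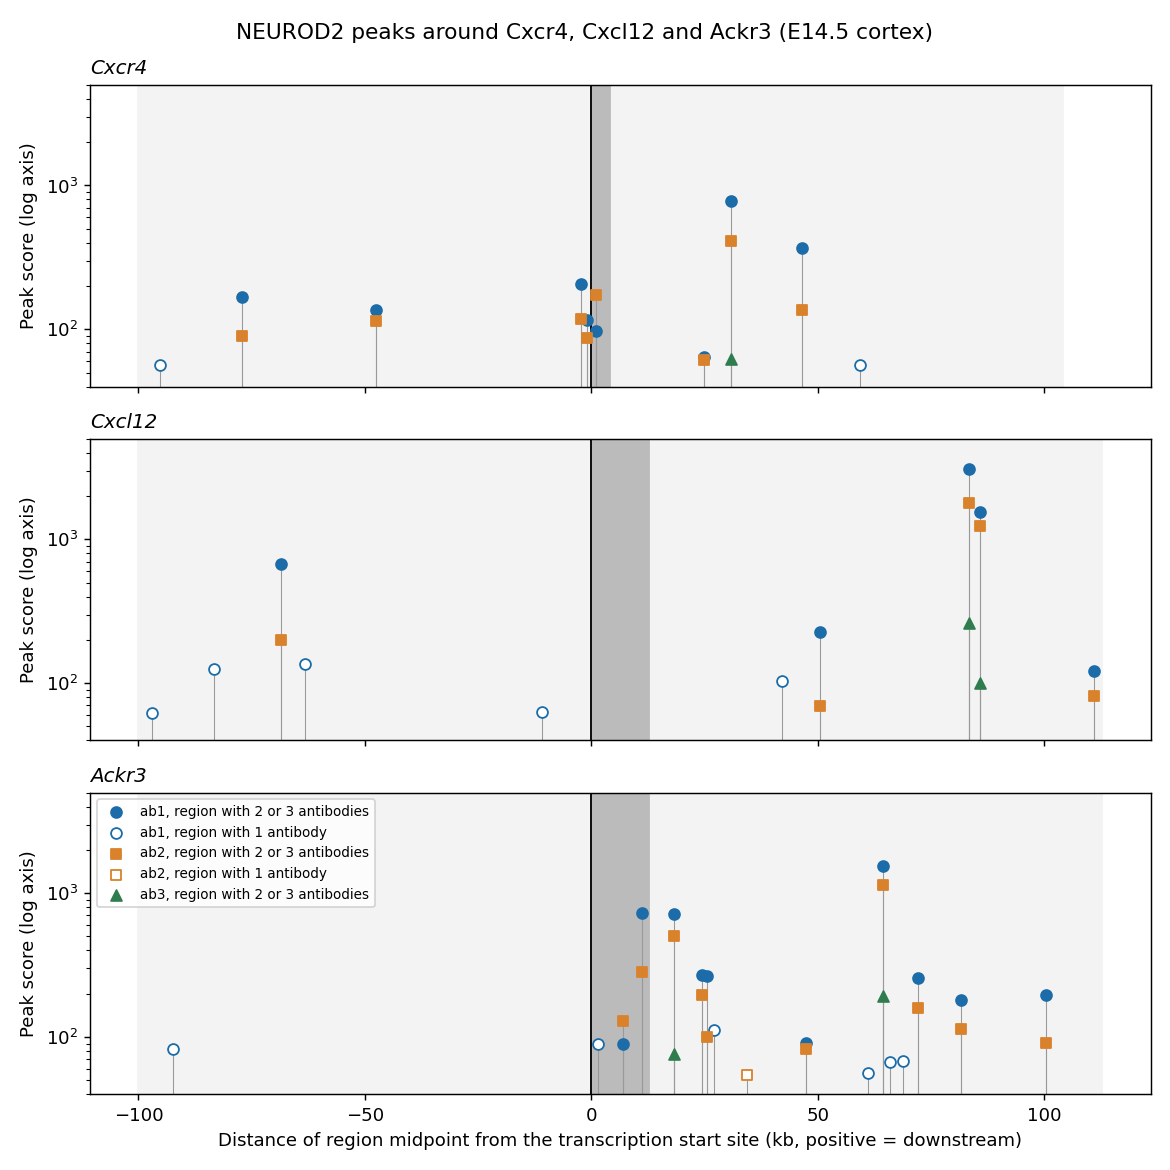
Peak score (log axis) of each antibody against the distance of the region midpoint from the TSS in kb, for Cxcr4, Cxcl12 and Ackr3. The line at 0 is the TSS, dark shading the gene, light shading the window of 100 kb on either side; filled symbols are regions with 2 or 3 antibodies, open ones regions with 1. The highest ab1 and ab2 scores lie at +83.4 and +85.8 kb of Cxcl12 and +64.3 kb of Ackr3, and Cxcr4 alone has regions with 2 antibodies within 2.5 kb of its TSS.

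Cxcr4 encodes the receptor through which CXCL12 signals. The gene (ENSMUSG00000045382.6) occupies chr1:128588199-128592290 on the reverse strand and has 2 exons. A row of 3 neighbouring regions with ab1 and ab2 peaks lined its TSS. The first, chr1:128590638-128591768, lay within the intron 1.1 kb downstream of the TSS and had scores of 97.99 with ab1 and 173.92 with ab2. The second, chr1:128592681-128593678, was centred 0.9 kb upstream, with 115.43 for ab1 and 87.63 for ab2. The third, chr1:128594183-128594851, was centred 2.2 kb upstream, with 205.84 for ab1 and 117.60 for ab2. Gaps of 912 and 504 bp separated these regions, and the TSS fell in the first gap, outside any peak. All 3 were modest within their libraries: 33.8%, 40.4% and 60.1% of all ab1 peaks scored lower, and 61.6%, 33.7% and 46.9% of all ab2 peaks. None had an ab3 peak.

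The highest ab1 and ab2 scores at Cxcr4 were distal. Their region lay 30.8 kb downstream of the TSS (chr1:128560986-128561921), beyond the end of the gene, and was the only one of the locus with all 3 antibodies. Its scores were 775.19 with ab1, 414.24 with ab2 and 62.40 with ab3. The ab1 and ab2 values were above 87.3% and 83.2% of the peaks of those libraries, while 23.2% of ab3 peaks scored lower than its ab3 peak. The region at +46.4 kb had 370.22 with ab1, the second highest of the locus, and 137.08 with ab2. On the upstream side, the regions at 47.6 and 77.2 kb had ab1 scores of 135.35 and 167.39 and ab2 scores of 113.53 and 89.22. The weakest of the 8 was at +24.8 kb, with 64.09 for ab1 and 61.37 for ab2, both close to the cutoff. The 2 regions with ab1 alone, at +59.4 and −95.2 kb, had the same score of 56.18. No other protein-coding gene lay within the window of Cxcr4, and Cxcr4 had the closest protein-coding TSS for all 10 regions.

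Cxcl12 encodes the ligand. The gene (ENSMUSG00000061353.11, chr6:117168574-117181366, forward strand) had no region within its span, and no region with 2 or more antibodies within 50 kb of its TSS. A pair of wide regions far downstream held the 2 highest ab1 and the 2 highest ab2 scores of the 3 loci. The region at +83.4 kb (chr6:117250969-117252931) spanned 1963 bp and scored 3100 with ab1, 1801.72 with ab2 and 263.70 with ab3. Its neighbour at +85.8 kb (chr6:117253452-117255346) spanned 1895 bp and scored 1558.87, 1233.73 and 100.90. These are the 2 widest of the 23 regions, whose median width was 853 bp, and 520 bp lay between them. A score of exactly 3100 was shared by 661 ab1 peaks, whose order is thus not resolved, and 1.41% of ab1 peaks had that score or a higher one. A further 69 ab1 peaks scored higher, up to 3233.06, and the sources used here do not say what the shared value stands for. Whether this ab1 score, and the sums and ratios that hold it, were limited by the peak caller cannot be told. In the other 2 libraries the +83.4 kb peak was above 98.5% of ab2 peaks and 89.3% of ab3 peaks. For the +85.8 kb region the shares were 94.6% of ab1, 96.5% of ab2 and 57.8% of ab3 peaks.

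The other 3 regions of Cxcl12 with 2 antibodies had ab1 and ab2 peaks and none with ab3. The region 68.5 kb upstream had scores of 668.74 with ab1 and 200.87 with ab2. The region at +50.5 kb had 226.25 and 68.98, and the one at +111.0 kb 122.25 and 81.72. The first 2 had ratios of ab1 to ab2 score of 3.33 and 3.28, the highest of the 23 regions. Over all regions of the genome with both antibodies the 90th percentile of this ratio was 3.27. Another 5 regions had an ab1 peak alone: −97.0 kb (62.49), −83.4 kb (126.23), −63.1 kb (135.35), −10.9 kb (62.57) and +42.0 kb (103.03). The nearest of them to the gene was thus 10.9 kb upstream of the TSS, close to the TSS of the long non-coding RNA gene D030044L04Rik at 3114 bp. Cxcl12 had the closest protein-coding TSS for all 10 regions, and no other protein-coding gene lay in the window.

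Ackr3 encodes the atypical receptor that shares CXCL12 with CXCR4. The gene (ENSMUSG00000044337.5, chr1:90203980-90216751, forward strand, 2 exons) had the most regions of the 3, and its 10 regions with 2 or more antibodies all lay downstream of the TSS. Of the 10, 2 were inside the gene. The region at +6.9 kb (chr1:90210408-90211285) was intronic and scored 88.70 with ab1 and 129.31 with ab2. The region at +11.1 kb (chr1:90214688-90215413) crossed from the end of the coding sequence into the 3′UTR in exon 2, with 726.50 and 282.71. The remaining 8 followed over the 100 kb beyond the gene. The first of these, at +18.3 kb (chr1:90221634-90222998), had peaks of all 3 antibodies, with 714.56, 505.57 and 76.62.

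The highest scores of the locus were at +64.3 kb (chr1:90267798-90268826), where ab1 had 1545.47, ab2 1144.36 and ab3 192.46. These were above 94.6%, 95.9% and 82.4% of the peaks of the 3 libraries. A pair at +24.5 and +25.5 kb, only 141 bp apart, had nearly equal ab1 scores of 268.99 and 266.17 but ab2 scores of 194.98 and 99.21. The regions at +72.1, +81.5 and +100.4 kb had ab1 scores of 258.42, 180.38 and 196.51 and ab2 scores of 159.69, 114.14 and 91.23. The weakest of the 10 by ab2 was at +47.3 kb, with 91.43 for ab1 and 82.19 for ab2. The 7 regions with 1 antibody included 1 in the intron at +1.4 kb (ab1, 89.35) and 1 at −92.4 kb (ab1, 82.83), within the neighbouring gene Iqca. The latter was the only one of the 37 regions with a closer protein-coding TSS than that of its own gene, that of Iqca at 41850 bp.

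The limit of 100 kb was close to strong sites at Ackr3. The next region beyond its window, at +114.7 kb (chr1:90317659-90319646), had scores of 2120.74, 1034.44 and 256.44, higher for ab1 and ab3 than any region inside it. Beyond the window of Cxcl12, regions lay at −118.8 kb (246.96 with ab1, 71.15 with ab2) and +162.6 kb (611.95, 365.97 and 111.68 with ab1, ab2 and ab3). Next to the window of Cxcr4 there were a region at +121.1 kb with 68.6 for ab1 and 75.24 for ab2, closer to the TSS of Dars, and an ab1 peak of 53.85 at −117.0 kb. The Ackr3 window had an ab1 peak of 54.04 at −102.0 kb on its other side.

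Scores of ab1 and ab2 ran together over the 23 regions (Pearson r of log10 scores 0.905, Spearman rho 0.801; the points share 2 libraries, and regions had to pass the cutoff in both). The ab1 score was higher in 21 regions, with a median ratio of ab1 to ab2 of 1.58, against 1.84 over all regions with both antibodies. Since the 2 scales differ, such ratios can be read only against those of the genome. The 2 exceptions were both intronic: Cxcr4 +1.1 kb, with a ratio of 0.563, and Ackr3 +6.9 kb, with 0.686. In the genome 10.8% of regions had a ratio below 1. The median score of the 23 regions was 226.2 with ab1 and 129.3 with ab2, near the genome's medians for such regions of 277.7 and 140.2. Only the Cxcr4 +30.8 kb, Cxcl12 +83.4 and +85.8 kb, and Ackr3 +18.3 and +64.3 kb regions reached the cutoff with ab3, and these hold the 5 highest ab2 scores.

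**Figure D2:**
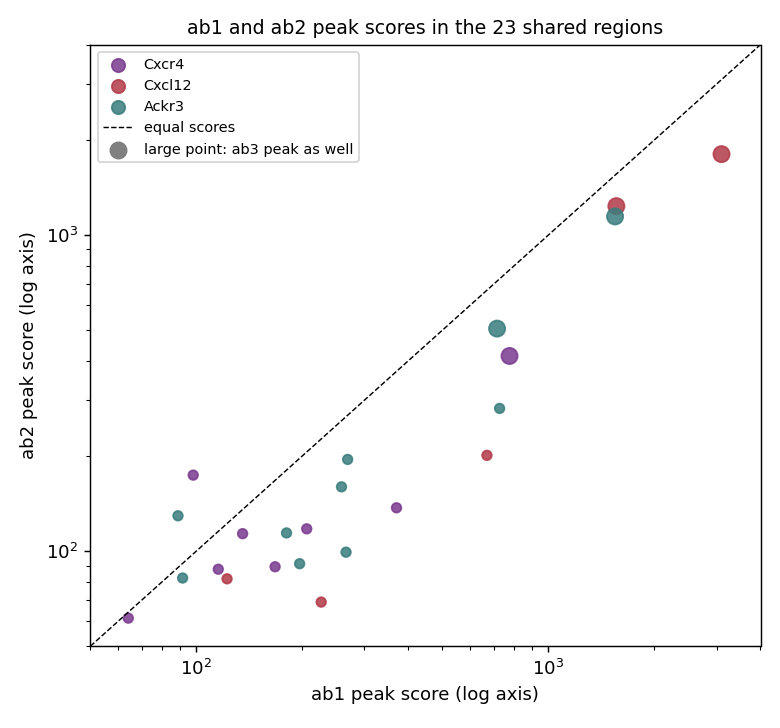
ab1 score (horizontal log axis) and ab2 score (vertical log axis) of the 23 regions with 2 or more antibodies, coloured by gene; large points also have an ab3 peak and the dashed line marks equal scores. The 5 large points are the top 5 by ab2, and 2 regions, Cxcr4 +1.1 kb and Ackr3 +6.9 kb, lie above the line.

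The number of regions was compared with that of all 21938 protein-coding genes, counted the same way. A region with 2 or more antibodies was present in the window of 77.8% of genes, with a median of 3 per gene. Ackr3 with 10 regions was matched or exceeded by 7.99% of genes, Cxcr4 with 8 by 13.6%, and Cxcl12 with 5 by 31.7%. Per megabase of window the density was 47.0 at Ackr3, 39.2 at Cxcr4 and 23.5 at Cxcl12, against a median of 11.3. Counting only regions with all 3 antibodies, Cxcl12 and Ackr3 had 2 each, a number reached by 17.4% of genes, and Cxcr4 had 1, reached by 38.9%. The order of the genes therefore depended on how many antibodies were required, and with 1 or more Cxcl12 and Cxcr4 had 10 regions each.

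**Figure D3:**
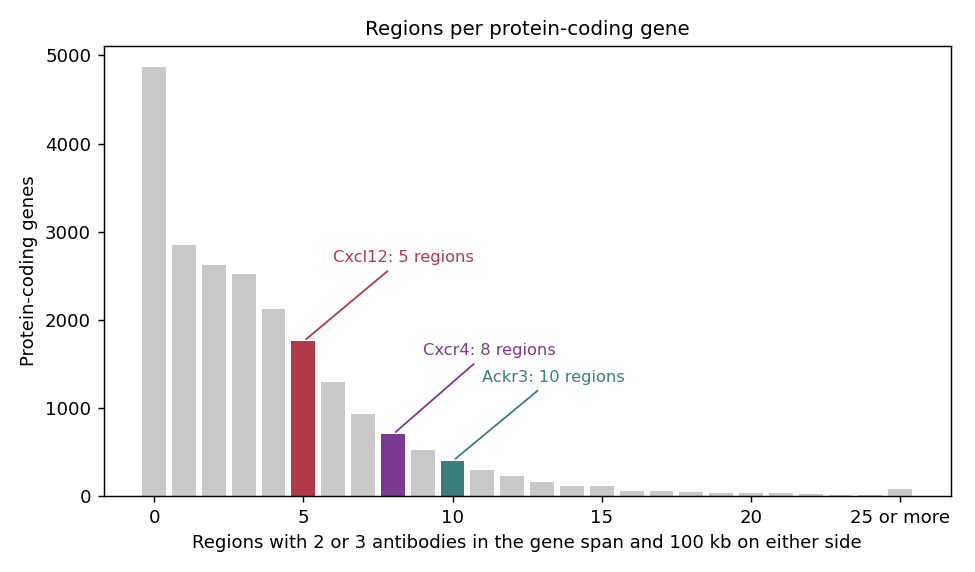
Number of protein-coding genes (vertical axis) by the number of regions with 2 or more antibodies in the gene span and 100 kb on either side (horizontal axis). The bars that hold Cxcl12 (5 regions), Cxcr4 (8) and Ackr3 (10) are coloured; all 3 genes are to the right of the median of 3.

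Summed over all peaks of the window, scores at Cxcl12 were 6165.8 with ab1 (including the peak at 3100), 3387.0 with ab2 and 364.6 with ab3, above 90.7%, 92.4% and 91.0% of protein-coding genes. At Ackr3 the sums were 4811.4, 2857.6 and 269.1, above 86.9%, 90.0% and 87.8%. At Cxcr4 they were 2043.9, 1194.6 and 62.4, above 65.9%, 72.7% and 66.5%. All 3 antibodies put the genes in the same order, but that order rested on the distal regions. Within 50 kb of either end, an alternative chosen after the data were seen, Cxcl12 went from highest to lowest. Its sums there were 391.9, 69.0 and 0 with ab1, ab2 and ab3, against 1764.1, 1105.4 and 62.4 at Cxcr4 and 2413.4, 1348.2 and 76.6 at Ackr3. Protein-coding genes with the most similar sums (smallest distance in log10 of 1 plus the sum, over the 3 antibodies) were Gm17324, Mto1 and Mfrp for Cxcr4, at distances of 0.005, 0.005 and 0.022. Gm17324 and Mto1 had identical sums. For Cxcl12 they were Apba2, Dlc1 and Csrnp3 (0.016, 0.017 and 0.018), and for Ackr3 Zfp618, Ccdc149 and Tmem219 (0.010, 0.012 and 0.016).

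A proximity score weighs regions by their distance from the TSS: each region with 2 or more antibodies counted for the nearest TSS alone, adding exp(−distance/5000 bp) to the score of that gene. Cxcr4 had a score of 2.29 from 7 regions, rank 47 of 55450 genes, while Ackr3 had 0.363 from 2 regions and Cxcl12 had 0 from none. The threshold, the mean plus 1 SD over genes with a region, was 0.993, and 6.35% of protein-coding genes were above it. Of the 3 genes only Cxcr4 was above it. That call was lost without ab1 (0.0021) and without ab2 (0.00213), both below the threshold of 0.578 that then applied, and with peaks of at least 100 only (0.643, threshold 0.874). From the peaks of each antibody alone, Cxcr4 scored 2.31 with ab1, 2.27 with ab2 and 0.0021 with ab3 (1.53 ± 1.32, SD over 3 antibodies), since the only ab3 peak was the distal one at +30.8 kb. Ackr3 scored 1.12, 0.365 and 0 (0.494 ± 0.57), where the ab1 value included the intronic peak at +1.4 kb. Cxcl12 scored 0 with each antibody.

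The zero of Cxcl12 followed from the annotation as well as from distance. Of its 5 regions with 2 or more antibodies, 4 were closer to the TSS of the processed pseudogene Rpl28-ps4. The other 1 was closer to that of a gene not annotated as protein-coding. At Ackr3, 3 regions went to Gm38277, and 2 each to the long non-coding RNA genes Gm28721 and Gm28723. When protein-coding genes alone competed, 13 regions were assigned to Cxcl12 and 17 to Ackr3, but their scores were still only 4.21e-05 and 0.402, because these regions were distant. Cxcr4 then had 9 regions and again 2.29 (rank 30), above the threshold of 1.08 that 4.24% of protein-coding genes passed.

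**Figure D4:**
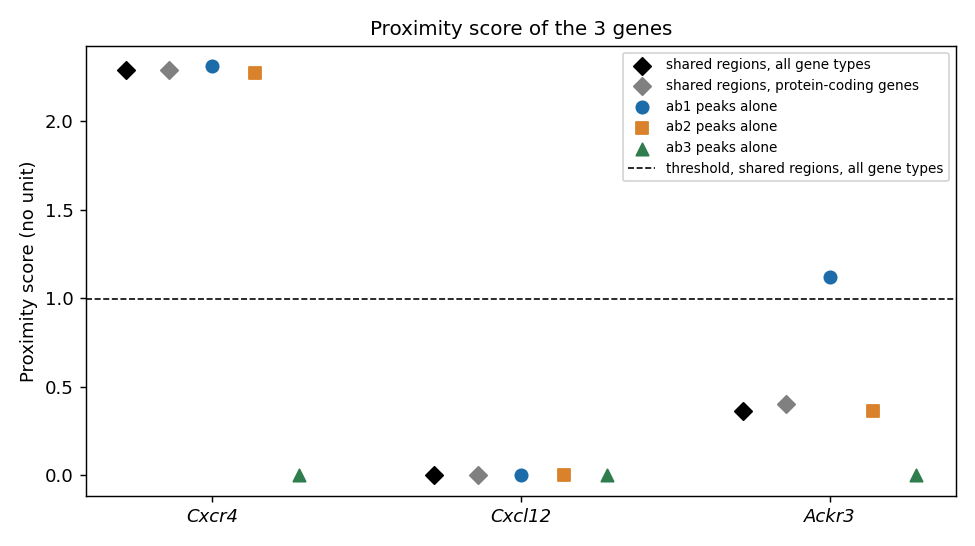
Proximity score (no unit) of Cxcr4, Cxcl12 and Ackr3 from shared regions with all gene types (black) or protein-coding genes only (grey), and from the peaks of ab1, ab2 or ab3 alone. The dashed line is the threshold of 0.993 for the black symbols, which does not apply to single antibodies; Cxcr4 is at 2.27 to 2.31 except with ab3 alone, and Cxcl12 is at or near 0 throughout.

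None of the 3 genes had a region over a narrow promoter window. In the RefSeq windows from 250 bp before to 50 bp after the start of each gene, 21.7% of protein-coding genes with such a window had a region with 2 or more antibodies. The Cxcr4 window was 132 bp from the nearest peak of any antibody, the Ackr3 window 1064 bp and the Cxcl12 window 10356 bp. The Cxcr4 window thus lay between peaks rather than under one, with the regions at +1.1 and −0.9 kb on either side.

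In 17 of the 23 regions the central 200 bp held the extended E-box (73.9%, Wilson 95% interval 53.5 to 87.5%). Over all regions of the genome with 2 or more antibodies the share was 59.7%, a value inside that interval, and in windows 1000 bp outside either end of those regions in 22.3%. By gene it was present in 5 of 8 regions at Cxcr4, 4 of 5 at Cxcl12 and 8 of 10 at Ackr3. The interval covers counting error only, and the motif was itself derived by the study from these peaks, so its presence is no independent evidence of binding.

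The definition of the extended E-box allows 3 core types. Cores of the CAGATG type (CATCTG on the other strand) accounted for 12 of the 21 copies, in 12 regions, and the CAGCTG core for 8, in 5 regions. The remaining 1 was CATATG. These are 57.1%, 38.1% and 4.76% of the copies, against 55.0%, 31.7% and 13.4% of the 28815 copies in the central windows of all regions with 2 or more antibodies. The first type was in the central window of the Cxcr4 region at +30.8 kb and of the Cxcl12 region at +85.8 kb, and the second was in the Ackr3 region at +64.3 kb and the Cxcr4 region at −2.2 kb. The Ackr3 region at +11.1 kb held 4 CAGCTG cores in tandem, which is the most of any of the 23.

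High scores were also found without the motif near the midpoint. The midpoint is the centre of the merged region, which need not be where enrichment was strongest. Of the 5 regions with all 3 antibodies, 3 held it in the central window (63.5% of all such regions did), while Cxcl12 +83.4 kb and Ackr3 +18.3 kb did not. Both had copies elsewhere, with 4 in the whole Cxcl12 region and 1 in the whole Ackr3 region. The other regions without a central copy were Ackr3 +72.1 kb and 3 regions of Cxcr4, at +1.1, −0.9 and −77.2 kb. Over their whole length 21 of the 23 regions had a copy, near the 90.3% of all such regions of the genome, and the 2 without were Cxcr4 +1.1 and −77.2 kb. Median GC content of the central windows was 52.5%, against 51.0% in all such regions of the genome, and 12 of 23 had no repeat-masked base, against 49.5%.

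**Figure D5:**
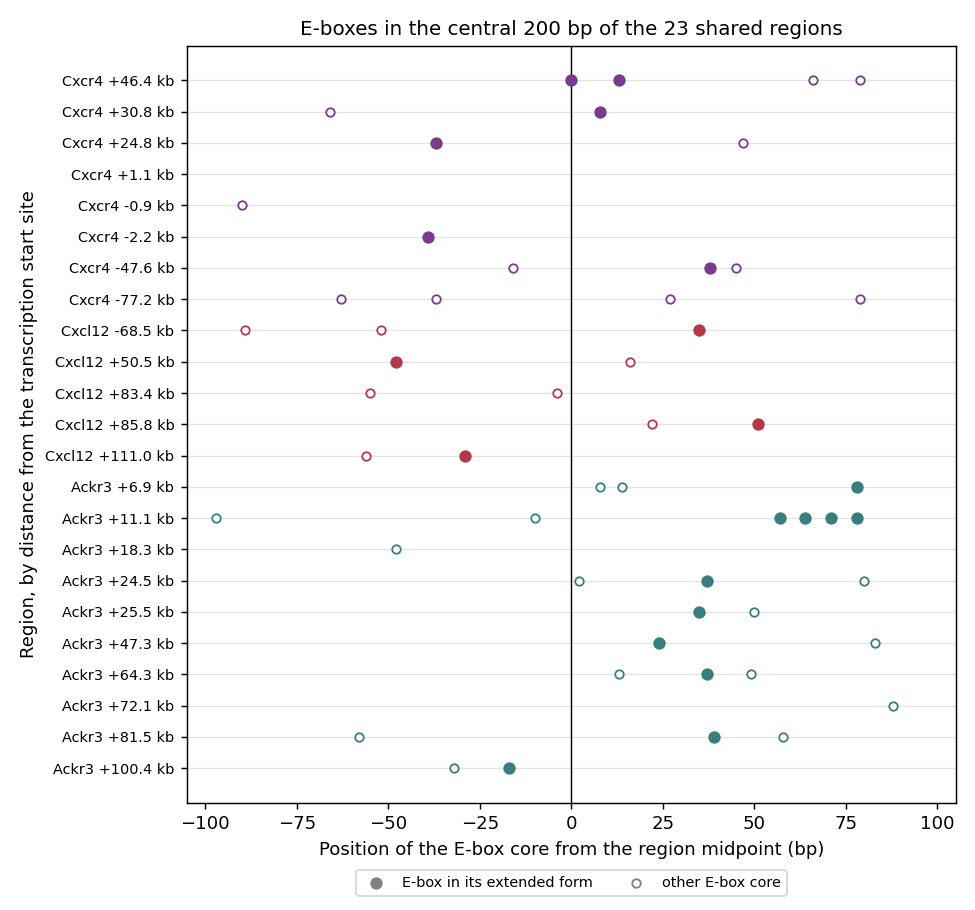
Position of each E-box core from the region midpoint in bp on the forward strand, 1 row for each of the 23 regions with 2 or more antibodies, coloured by gene. Filled points are cores in the extended form (21 copies in 17 regions) and open points are other cores; the 4 filled points side by side are the tandem copies at Ackr3 +11.1 kb, and the row of Cxcr4 +1.1 kb is empty.

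The rest of the chemokine system was surveyed in 4 lists with 38 genes, of which 30 had at least 1 region with 2 or more antibodies in their window (median 3.5), near the 77.8% and the median of 3 over all protein-coding genes. The counts by list below are to be read against the same 77.8%. A region was counted for every gene whose window held it, so genes that lie close together can share regions and are not independent. By proximity score 1 of the 38 passed the threshold, against 6.35% of protein-coding genes. In none of these lists did a gene have a score near that of Cxcr4. Among the 6 genes for other ligands and ligand handling, 5 had a region in the window and none passed; Cxcl11, which also encodes an ACKR3 ligand and is annotated as a polymorphic pseudogene, had 0.459, and Cxcl14 had 0.228. The gene of this list without a region was Adm, which encodes adrenomedullin.

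Among 9 other chemokine receptors, 7 had a region in the window and none passed the threshold. Ackr4 and Ackr1, which like Ackr3 encode atypical receptors, scored 0.528 and 0.359, and all others scored 0, while Cxcr3 and Cxcr6 had no region. Among 8 other CXC and CX3C ligands, 4 had a region in the window and all had a proximity score of 0. Cxcl1, Cxcl2, Cxcl5 and Cxcl13 had none.

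Signalling genes downstream of the receptors had 14 of 15 with a region in the window, and Gnai1, a G protein subunit gene, had none. The highest proximity scores of the list were those of Arrb2 (0.999), Grk6 (0.976) and Arrb1 (0.970), each from 1 region. They encode both β-arrestins and a kinase that phosphorylates activated receptors. Arrb2 was just above the threshold of 0.993 and both others just below, and none of the 3 passed when protein-coding genes alone competed.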

How the data were processed

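The authors mapped 50 nt single-end reads to mm10 with Bowtie, removed duplicates and called peaks per library with MACS against a GFP library of the same host species. The deposited files list peak coordinates and a score, −10 times the log10 p-value, with none under the cutoff of 50; read depth and control values are not in these lists, so no interval for a single peak is given. Peaks on chromosomes 1 to 19, X and Y were merged by overlap of at least 1 bp with pandas 2.3.3 (Python 3.11.15); 5 peaks elsewhere were left out of the regions. Positions and genes came from GENCODE M21, and sequences from RefSeq GRCm38.p6, the same assembly as mm10. The merging, scoring and motif search were checked on simulated data. Genes named beside the 3 were chosen by rule: any other gene that was the closest TSS of 2 or more regions or was protein-coding, the 3 genes most similar in summed score, and in each pathway list the 3 highest scores above 0 and the genes without a region. D030044L04Rik, Dars, Nhlh2 and regions outside the windows were added after their values were seen. The members and lists were chosen with earlier results of these data known. With 1 library per antibody and 1 condition, no test was made. Alternatives were a higher score cutoff, a stricter overlap, other windows, decay lengths and motif windows, and leaving out each antibody.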

Additional observations from a re-analysis of the deposited data

How the results depend on the processing

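Of 74 values recomputed under alternatives, 46 stayed within 1.5 times of the reported count or 1 SD over antibodies. Counts and scores cannot change sign, and for the Ackr3 proximity score (0.363, SD 0.57) and Cxcl12 at 0 that limit cannot show a fall. The Ackr3 score was 0 without ab1 and without ab2, 0.109 with peaks of at least 100 and 0.00106 with a decay length of 1000 bp. Keeping only peaks with a score of at least 100 left 4, 3 and 6 regions with 2 or more antibodies at Cxcr4, Cxcl12 and Ackr3, 10 regions in all at Ackr3, and a Cxcr4 proximity score of 0.643, below the threshold of 0.874. A window of 50 kb left 3 regions at Cxcl12, 1 of them with 2 or more antibodies, and 10 at Ackr3, 6 of them with 2 or more. Leaving out each antibody in turn gave 8 to 10 regions at Cxcr4, 5 to 10 at Cxcl12 and 11 to 17 at Ackr3. Regions with 2 or more antibodies then numbered 1 to 8, 2 to 5 and 2 to 10. The low values arose without ab1 or without ab2, since only the small ab3 set remained to overlap with the other; without ab3 nothing moved. The Cxcr4 proximity score was 0.0021 to 2.29 and fell below the threshold without ab1 or ab2, and the share with the extended E-box was 60 to 73.9%. A decay length of 1000 bp gave Cxcr4 a score of 0.856 (threshold 0.653), and one of 50000 bp gave 4.66 to Cxcr4 and 1.67 to Ackr3 (threshold 2.22), so the calls held. With protein-coding genes only, Cxcl12 scored 4.21e-05. The share of regions with the motif was 95.7% for CANNTG, 91.3% in whole regions and 60% in regions with all 3 antibodies, against 83.7%, 90.3% and 63.5% in the genome. No paired analysis was possible because the result comes from no test and each antibody has 1 library. The part of sequencing depth and of the antibody in missing ab3 peaks was not tested.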
